A study of Mus musculus with 2 samples.

Results

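The 9 integrin subunit genes described here are Itga3, Itga5, Itga6, Itga11, Itgav, Itgb1, Itgb3, Itgb4 and Itgb5, taken by name from the 17408 genes of a scRNA-seq table of reprogramming cells. Mouse embryonic fibroblasts (MEFs) that carry STEMCCA, a doxycycline-inducible cassette of the factors Oct4, Klf4, Sox2 and c-Myc, were reprogrammed in serum medium with LIF and ascorbic acid, and cells were taken unsorted at day 16. They were loaded as 2 libraries of 1 group, called replicate 1 and replicate 2 here, so there was no control condition and the comparisons below are between cell states within the libraries. The study's text says that 2 independent STEMCCA mouse systems were used at day 16, but the labels are the same for both libraries and do not say which system, culture or MEF isolation each came from. A difference of genotype between the libraries can therefore not be told apart from technical spread, and the p-values measure only the spread between these 2 libraries. Replicate 1 held 3109 cells with a median of 15625 UMIs (unique molecular identifiers, 1 per captured mRNA molecule) and replicate 2 held 3914 cells with a median of 14292, and the libraries shared 12 cell barcodes.

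Integrins are receptors of the cell surface made of an α and a β subunit, and the pair decides which matrix protein the cell grips. Itgb1 is the shared β partner of many α subunits. Itga5 with Itgb1 is the classical fibronectin receptor, Itga11 with Itgb1 is a collagen receptor of mesenchymal cells, and Itga3 and Itga6 make laminin receptors. Itgav pairs with Itgb1, Itgb3 or Itgb5 to bind vitronectin, fibronectin and other ligands with an RGD motif. Itgb4 pairs only with Itga6, and that receptor anchors epithelial cells to laminin in hemidesmosomes. Fibroblasts lose mesenchymal adhesion and gain epithelial features early in reprogramming, which is why the subunits were followed across cell states.

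A level is given as the mean over cells of a gene's UMIs per 10000 UMIs of the cell. These are counts of mRNA 3′ ends, which do not grow with transcript length. Over all cells Itgb1 (chr8:128685654-128733200, plus strand; mm10 coordinates from GENCODE) stood at 1.34 and Itgb5 (chr16:33829665-33949338, plus strand) at 1.32. Itgb4 (chr11:115974709-116008412, plus strand) stood at 0.571, Itgav (chr2:83724397-83806916, plus strand) at 0.477 and Itga11 (chr9:62677826-62783982, plus strand) at 0.278. Itga6 (chr2:71745616-71858416, plus strand) stood at 0.166 and Itga5 (chr15:103344286-103366763, minus strand) at 0.146. Itgb3 (chr11:104608000-104670476, plus strand) at 0.0839 and Itga3 (chr11:95044474-95076801, minus strand) at 0.0162 fell under the mean of 0.1 that a gene needed to be tested, so 7 of the 9 members were tested and these 2 are given as values.

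Cells were clustered without the integrins, their ligands and their adhesion partners, and without X- and Y-linked genes, so that no subunit shaped the states it is described in. Of 14 clusters, 10 had at least 30 cells in each library. The pluripotent-like state (146 and 391 cells) raised 11 of 12 pluripotency markers at least 2-fold, the fibroblast-like state (252 and 181 cells) raised 7 of 12 fibroblast markers, and the myofibroblast or smooth muscle-like state (337 and 246 cells, called myofibroblast-like from here) raised 9 of 10 contractile markers and also 8 of 12 fibroblast markers. The other 7 met no marker class and are called by their leading genes. Genes that vary with the excluded ones still shaped the states, so a difference between states describes cells that already differ in many genes.

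In pluripotent-like cells 6 of the 7 tested subunits were lower than in all other cells and 1, Itga6, was higher, where 46.1% of the 7131 genes tested were lower and 31.7% were higher (limma, adjusted p below 0.05). The median log2 difference of the 7 was -1.71, against -0.16 over all genes tested. The laminin receptor chain Itga6 was at 0.345 and 0.403 in the pluripotent-like cells of replicates 1 and 2 and at 0.138 and 0.156 in the other cells, a log2 difference of 0.94 (SE 0.09, adjusted p = 8.3e-06 by limma). Its level was 250% and 259% of that in the other cells, and the pluripotent-like state ranked highest of the 10 states with at least 30 cells per library, with no overlap between its libraries and those of the next state.

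Itgb5, a vitronectin receptor chain, had the largest negative log2 difference at this pseudocount, though as a share of the level in the other cells Itga11 was lower. Itgb5 was at 0.134 and 0.154 in pluripotent-like cells and at 1.5 and 1.35 in the others, a log2 difference of -2.64 (SE 0.10, adjusted p = 1.8e-08 by limma). Itgb4 was at 0.0611 and 0.0878 against 0.580 and 0.638, a difference of -2.03 (SE 0.09, adjusted p = 5.8e-08 by limma). The lowest Itgb4 level of the 10 states was thus in pluripotent-like cells, where its only partner Itga6 was highest. Itgb1 was at 0.294 and 0.310 against 1.61 and 1.27, a difference of -1.93 (SE 0.11, adjusted p = 2.1e-07 by limma). Itgb1, Itgb4, Itgb5 and Itgav were each lowest in the pluripotent-like state, with both libraries below every library of the other 9 states. How many of all genes tested were separated in this way, or upward like Itga6, was not counted.

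Itga11 was at 0.0244 and 0.0177 in pluripotent-like cells and at 0.402 and 0.213 in the others, a difference of -1.71 (SE 0.14, adjusted p = 2.3e-06 by limma). The 2 libraries' own differences were -2.01 and -1.41. Itgav was at 0.0979 and 0.0862 against 0.535 and 0.487, a difference of -1.67 (SE 0.09, adjusted p = 1.7e-07 by limma). The fibronectin receptor chain Itga5 moved least, from 0.171 and 0.132 in the other cells to 0.0770 and 0.0985, a difference of -0.42 (SE 0.11, adjusted p = 0.0070 by limma). That call was lost when each cell was thinned to 3000 UMIs (-0.08, adjusted p = 0.79 by limma), and the difference was -0.61 in replicate 1 and -0.23 in replicate 2. Itgb3, not tested, was at 0.0493 and 0.0159 in pluripotent-like cells and at 0.0988 and 0.0803 in the others, and Itga3, not tested, was at 0.0232 and 0.0257 against 0.0122 and 0.0182.

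**Figure D1:**
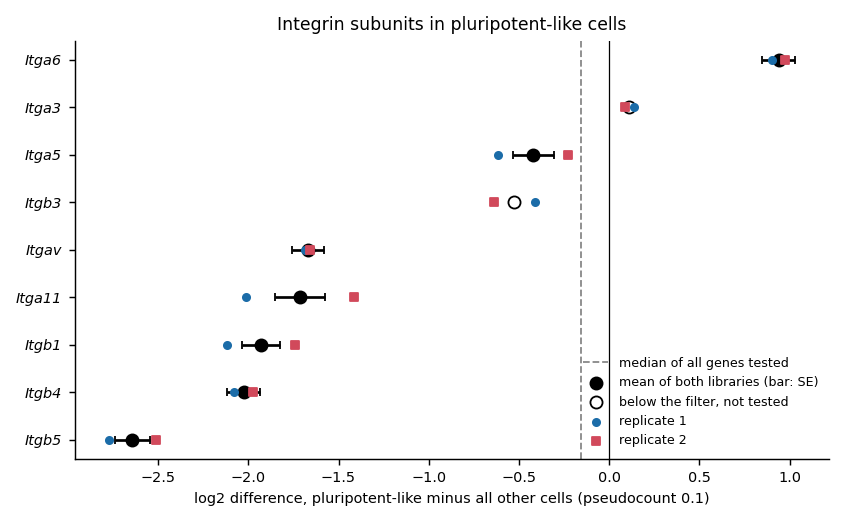
Log2 difference of each integrin subunit between pluripotent-like cells and all other cells, with small points for each library, large points for the mean of both (filled where tested, with the limma SE as bar) and a dashed line at the median of all genes tested. Itga6 lies at 0.94 to the right of 0, Itga3 at 0.11 near it, and Itgb5 at -2.64 farthest to the left.

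Fibroblast markers were low in pluripotent-like cells but mostly not at 0. The 8 of 12 markers with a mean of at least 0.1 had a median level of 5.26% and 6.77% of that in the other cells of replicates 1 and 2, with a range of 2.21% to 81.7% and 4.20% to 96.0%. Itga11 stood at 6.07% and 8.28%, close to that median, Itgb5 at 8.92% and 11.4%, and Itgb4 at 10.5% and 13.7%. Itgb1 (18.3% and 24.4%), Itgav (18.3% and 17.7%) and Itga5 (45% and 74.4%) stood above the median of the markers. Of the 4 scarcer markers Dpt was at 0 in both libraries and Lum and Pdgfra in replicate 1. The part of RNA from other cells in the integrin levels was not tested. Pluripotent-like cells were also deeper, with a median of 28768 and 26097 UMIs against 15214 and 13651 in the other cells, and in cells thinned to 3000 UMIs the differences were 0.92 for Itga6, -2.85 for Itgb5, -2.13 for Itgb1, -1.83 for Itgb4, -1.80 for Itga11 and -1.72 for Itgav, all past the threshold.

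The shares of cells with a UMI, taken after thinning every cell to 3000 UMIs, lay on the same side for these 4 subunits. An Itga6 UMI was found in 9.59% (14 of 146; exact 95% interval 5.34% to 15.6%) and 11.8% (46 of 391; 8.74% to 15.4%) of pluripotent-like cells, against 3.64% and 4.37% of the other cells. An Itgb1 UMI was found in 6.85% and 7.93% of pluripotent-like cells, against 34.2% and 30.1% of the others. An Itgb4 UMI was found in 2.05% and 4.09% against 15.0% and 16.3%. An Itga11 UMI was found in 0.685% and 0.512% of pluripotent-like cells, against 8.94% and 5.08% of the others and 0 of 66 epithelial-like cells of replicate 1, which allows a share of up to 4.55% (median depth 21446 UMIs). Without thinning 3.03% of those epithelial-like cells had an Itga11 UMI. Whether the few Itga11 UMIs of pluripotent-like cells were background was not tested. Without thinning, the shares in pluripotent-like cells were 58.2% and 59.1% for Itga6, 56.2% and 49.6% for Itgb1, 17.1% and 18.7% for Itgb4 and 7.53% and 4.6% for Itga11. Intervals and limits cover counting error only.

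The 9 other states differed in every tested subunit: all 7 passed the F test over these states, as did 87.2% of all genes tested. Of the 63 contrasts of a subunit in a state with the mean of the other 8 states, 43 passed the threshold. Over all genes tested, 28.4% to 56.9% passed in such a contrast, depending on the state. Itga5, Itga11, Itgav, Itgb1 and Itgb5, called the mesenchymal set from here, were all higher in the fibroblast-like and myofibroblast-like states, where Itga6 and Itgb4 were not. The grouping is a description made after the values were seen, and in other states members of the set differed in direction. In the order of the 10 states by mean level, the libraries of neighbouring states overlapped in 2 of 9 pairs for Itgb5, 4 for Itgb1 and Itgb3, 5 for Itga5, Itga6, Itga11 and Itgav, and 6 for Itga3 and Itgb4. Such overlaps were not counted over all genes, so these counts only describe the members.

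**Figure D2:**
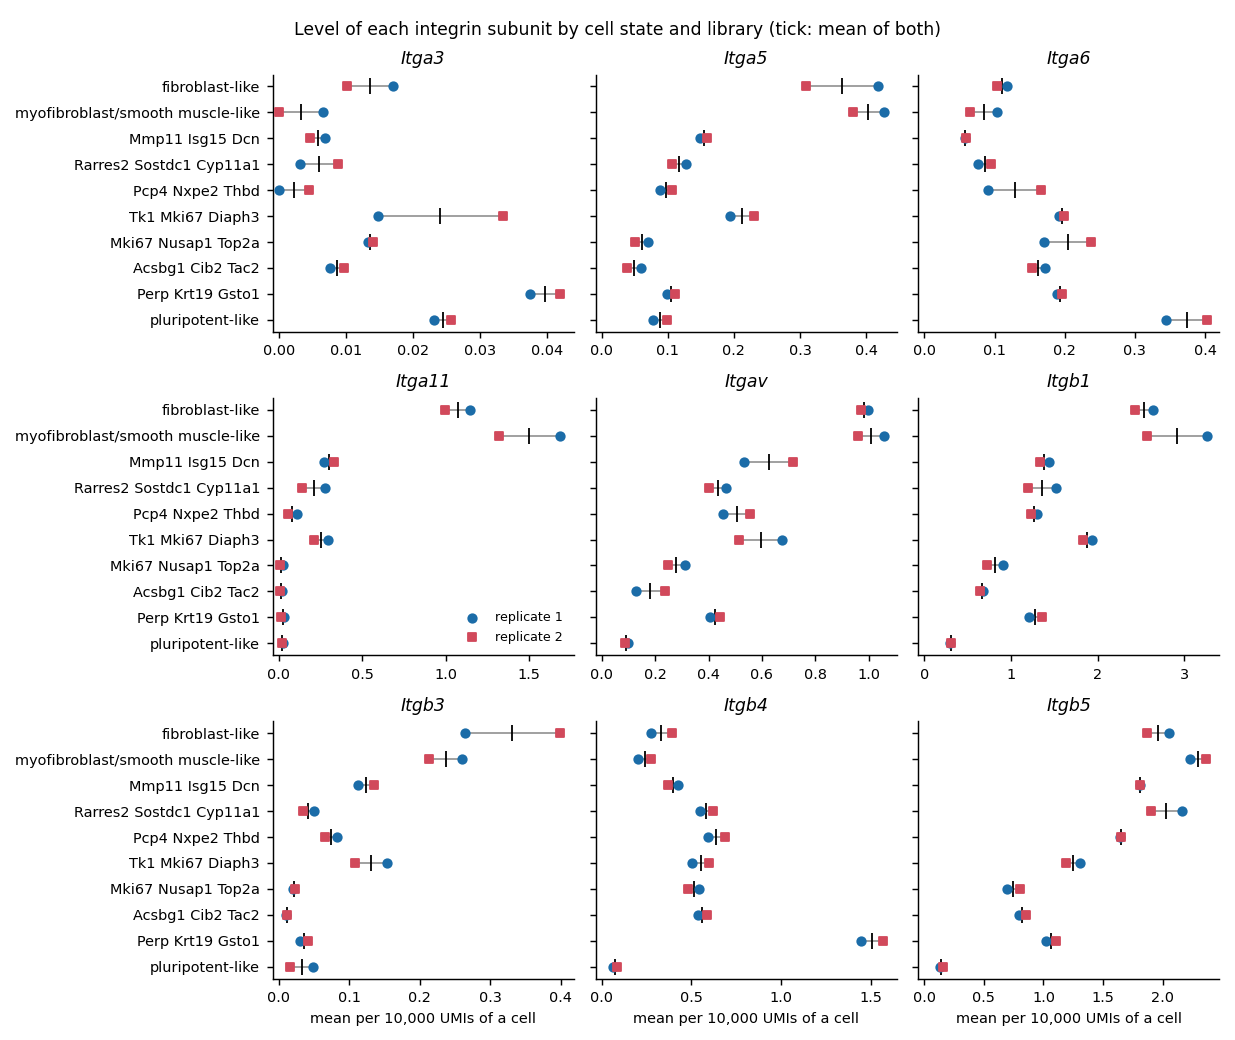
Mean UMIs per 10000 of each integrin subunit (horizontal axes, each panel with its own scale) in the 10 states with at least 30 cells per library, with a circle for replicate 1, a square for replicate 2 and a tick at their mean. The fibroblast-like and myofibroblast-like states lead the panels of Itga5, Itga11, Itgav, Itgb1 and Itgb3, the Perp Krt19 Gsto1 state leads that of Itgb4 and the pluripotent-like state that of Itga6.

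Of the 10 states with at least 30 cells per library, the myofibroblast-like state had the highest mean level of Itga11, Itga5, Itgav, Itgb1 and Itgb5. For Itga5, Itgav and Itgb1 its libraries overlapped those of the fibroblast-like state. In it 5 of the 7 subunits were higher and 2 lower than the mean of the other states, where 54.9% of all genes passed in either direction. Itga11 was at 1.68 and 1.32 there and at 1.14 and 0.998 in the fibroblast-like state, and in no library of the other 8 states above 0.329. Its log2 difference from the mean of the other states was 2.68 in the myofibroblast-like state and 2.18 in the fibroblast-like state (SE 0.11, adjusted p = 1.4e-11 by limma). From the highest to the lowest state, Acsbg1 Cib2 Tac2 at 0.0190 and 0.00849, the mean level of Itga11 spanned 109-fold, the widest span of the 9 genes. Earlier results of these data had already named myofibroblast-like cells by Itga11, so its level there is a description.

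Itgb1 was at 3.26 and 2.57 in myofibroblast-like cells and at 2.64 and 2.43 in fibroblast-like cells. The differences from the mean of the other states were 1.10 and 0.89 (SE 0.07 each), and with Itga5 (1.13 and 0.99) and Itgav (0.98 and 0.95) all passed the threshold in both states. Itgb5 rose less, by 0.74 and 0.50, and was spread over more states, with 2.16 and 1.90 in the Rarres2 Sostdc1 Cyp11a1 state, which overlap the 2.06 and 1.87 of the fibroblast-like state. Itgb3, not tested, followed the set, at 0.264 and 0.399 in fibroblast-like and 0.260 and 0.213 in myofibroblast-like cells and at 0.154 or less in every other library. In the fibroblast-like state 5 of 7 subunits were higher and Itgb4 lower, where 55.8% of all genes passed. Itgb4 fell by 1.0 in myofibroblast-like and by 0.62 in fibroblast-like cells on the log2 scale, to 0.205 and 0.278 and to 0.274 and 0.393.

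**Figure D3:**
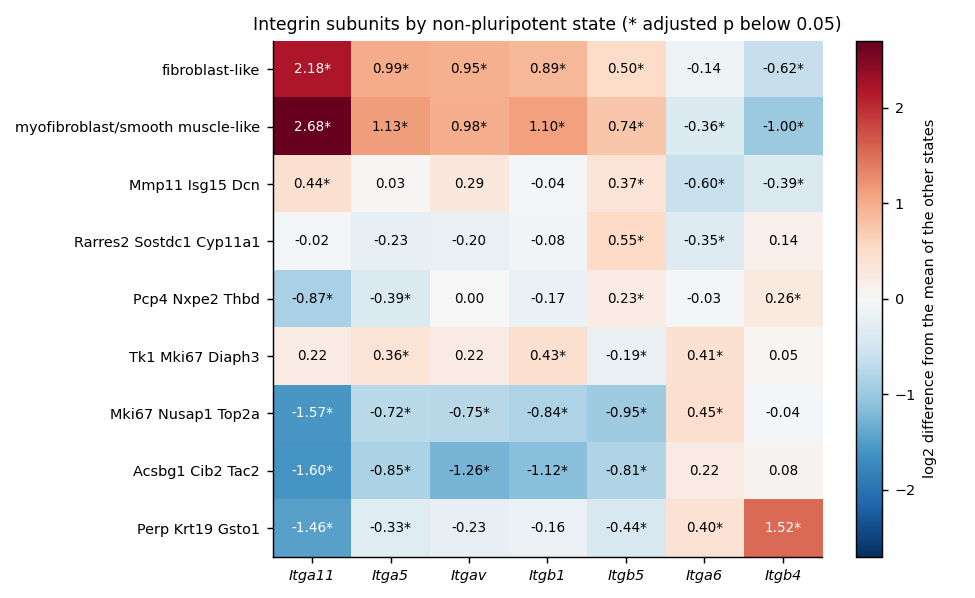
Log2 difference of each tested subunit (columns) between a non-pluripotent state (rows) and the mean of the other 8 non-pluripotent states, in red where higher and blue where lower, with an asterisk at an adjusted p below 0.05. Itga11 at 2.68 and 2.18 in the top rows and Itgb4 at 1.52 in the bottom row are the largest positive values.

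The promoters of 4 subunits of the mesenchymal set are shown because their RNA was high in the fibroblast-like and myofibroblast-like states. They were read from RefSeq (GRCm38.p6), 250 bases before to 50 after the start of the gene. Capitals mark matches, on either strand, to 3 short motifs: TGANTCA, bound by AP-1, GGAATG, bound by TEAD factors, and GGGCGG, the GC box bound by Sp and Klf factors. The table holds no promoter of Itga6, Itgb3 or Itgb4.

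Itga11, chr9:62677605-62677904, plus strand: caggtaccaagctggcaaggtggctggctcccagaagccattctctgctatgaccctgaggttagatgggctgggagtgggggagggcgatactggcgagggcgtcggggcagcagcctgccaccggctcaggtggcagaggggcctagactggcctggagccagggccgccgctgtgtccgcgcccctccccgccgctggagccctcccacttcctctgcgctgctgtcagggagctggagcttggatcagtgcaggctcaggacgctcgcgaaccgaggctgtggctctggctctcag

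Itgav, chr2:83724147-83724446, plus strand: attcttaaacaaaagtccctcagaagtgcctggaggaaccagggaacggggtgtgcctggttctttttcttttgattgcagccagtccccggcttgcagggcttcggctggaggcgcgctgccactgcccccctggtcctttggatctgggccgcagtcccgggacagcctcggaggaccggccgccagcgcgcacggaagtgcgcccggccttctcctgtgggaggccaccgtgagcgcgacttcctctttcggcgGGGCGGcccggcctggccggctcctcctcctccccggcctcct

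Itgb1, chr8:128685404-128685703, plus strand: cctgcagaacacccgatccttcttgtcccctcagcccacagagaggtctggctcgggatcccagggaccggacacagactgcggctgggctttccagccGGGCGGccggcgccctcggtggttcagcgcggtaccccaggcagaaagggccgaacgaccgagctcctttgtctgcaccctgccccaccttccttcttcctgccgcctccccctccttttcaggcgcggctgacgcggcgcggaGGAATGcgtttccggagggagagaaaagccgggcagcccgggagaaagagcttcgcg

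Itgb5, chr16:33829415-33829714, plus strand: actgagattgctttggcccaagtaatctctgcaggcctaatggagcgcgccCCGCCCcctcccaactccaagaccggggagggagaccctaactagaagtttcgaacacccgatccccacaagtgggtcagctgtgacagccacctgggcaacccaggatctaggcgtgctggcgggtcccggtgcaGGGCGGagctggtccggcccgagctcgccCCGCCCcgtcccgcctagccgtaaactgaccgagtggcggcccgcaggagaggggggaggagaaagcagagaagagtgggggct

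The Itga11 window held none of the 3 motifs, that of Itgav held 1 GC box, that of Itgb1 held 1 GC box and 1 TEAD motif, and that of Itgb5 held 3 GC boxes. The promoter of Itga5, not printed, held 2 GC boxes. Of 32851 RefSeq promoters of this length, 35.7% held a GC box, 14.7% a TEAD motif and 7.81% an AP-1 motif. GC content was 68.0% for Itga11, 67.3% for Itgav, 67.3% for Itgb1 and 65.7% for Itgb5. A match of these letters is not a bound site.

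Itgb4 stood apart from that set. It was at 1.44 and 1.57 in the Perp Krt19 Gsto1 state, a log2 difference of 1.52 from the mean of the other states. In no library of the other 9 states with at least 30 cells per library was it above 0.686. In the 66 epithelial-like cells of replicate 1 it was at 0.729. In this state 2 subunits were higher and 3 lower, where 46.6% of all genes passed. Itga6 was at 0.189 and 0.197 there (difference 0.40, adjusted p = 0.0058 by limma), Itga11 at 0.0323 and 0.0154 (-1.46), Itgb5 at 1.02 and 1.10 (-0.44) and Itga5 at 0.0984 and 0.110 (-0.33, adjusted p = 0.57 after thinning by limma). Itga3, not tested, was at 0.0374 and 0.0419, the highest of the 10 states, and was higher still at 0.356 in the 42 mesothelial-like cells of replicate 2. The state is led by Perp, a desmosome protein, and the simple-epithelial keratin Krt19, but it met no marker class. Its best score was 2 of 8 mesothelial markers, a list that holds Krt19, and fewer than 3 epithelial markers were raised. Earlier results of these data had already named such cells by Itgb4, so the Itgb4 level is a description.

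The hemidesmosome partners of Itgb4 did not all move with it. Cd151, a tetraspanin that binds laminin receptors, was at 0.484 and 0.659 in the Perp Krt19 Gsto1 state and rose by 0.52 (adjusted p = 0.0018 by limma). It was also higher in the Tk1 Mki67 Diaph3 state (0.36, adjusted p = 0.019 by limma). The same held for the myofibroblast-like state (0.37, adjusted p = 0.016 by limma), where Itgb4 was lower. Cd151 was lower in the Acsbg1 Cib2 Tac2, Mki67 Nusap1 Top2a and Pcp4 Nxpe2 Thbd states. The linker proteins Plec, at 0.826 and 0.839, and Dst, at 1.45 and 1.11, did not pass (differences 0.17 and -0.07, adjusted p = 0.12 and 0.44 by limma). Col17a1, a transmembrane collagen of hemidesmosomes, had 0 and 2 UMIs in all cells of the state. It was not high enough to be tested.

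Cycling cells did not form a single pattern. The Mki67 Nusap1 Top2a state, led by mitotic genes, had 1 subunit higher and 5 lower (56.9% of all genes passed), with Itgb1 at 0.905 and 0.717 (difference -0.84), Itgb5 at 0.692 and 0.799 (-0.95) and Itga6 at 0.171 and 0.237 (0.45, adjusted p = 0.0016 by limma). The Tk1 Mki67 Diaph3 state, led by genes of DNA synthesis and mitosis, had 3 higher and 1 lower (49.5% of all genes passed). In it Itgb1 was at 1.93 and 1.83 (0.43), Itga5 at 0.195 and 0.230 (0.36) and Itgb5 at 1.31 and 1.19 (-0.19). Itga6 was at 0.191 and 0.200, and its difference of 0.41 became 0.04 after thinning (adjusted p = 0.88 by limma). The calls of Itga5 (adjusted p = 0.22 by limma) and Itgb5 (adjusted p = 0.12 by limma) in this state were also lost after thinning.

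The Acsbg1 Cib2 Tac2 state had 5 of the 7 subunits lower, where 55% of all genes passed. Itgb1 was at 0.678 and 0.646 there (-1.12), Itgav at 0.128 and 0.236 (-1.26), Itgb5 at 0.791 and 0.851 (-0.81) and Itga5 at 0.0594 and 0.0379 (-0.85), while Itgb4 at 0.537 and 0.587 and Itga6 at 0.171 and 0.154 did not pass. Among the 9 non-pluripotent states with at least 30 cells per library its Itgb1 was the lowest, with both libraries below those of the other 8. The Rarres2 Sostdc1 Cyp11a1 state had Itgb5 higher (0.55) and Itga6 lower (-0.35), where 28.4% of all genes passed. The Itga6 call there was lost with no filter (adjusted p = 0.093 by limma), from summed UMIs (adjusted p = 0.086 by limma) and after thinning, where the difference was -0.14 (adjusted p = 0.71 by limma). The Pcp4 Nxpe2 Thbd state had Itgb4 (0.26) and Itgb5 (0.23) higher and Itga5 (-0.39) and Itga11 (-0.87) lower, where 31.1% passed. In it the Itgb4 call was lost with a pseudocount of 1, no filter, thinning or no library term (adjusted p = 0.082 to 0.20 by limma), and after thinning those of Itgb5 (0.12, adjusted p = 0.54 by limma) and Itga5 (adjusted p = 0.090 by limma) were lost too. The Mmp11 Isg15 Dcn state, which raised 3 of 12 fibroblast markers and so met no class, had Itga11 (0.44) and Itgb5 (0.37) higher. Itga6 (-0.60) and Itgb4 (-0.39) were lower in it, where 46.7% passed. With a pseudocount of 1 its Itga11 difference was -0.01 (adjusted p = 0.77 by limma), and after thinning 0.27 (adjusted p = 0.31 by limma).

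The make-up of the subunit RNA gives each gene as a share of its family, a scale on which a gene can rank differently than by level. Of the UMIs of the 5 α members in pluripotent-like cells, Itga6 took 59.7% (138 of 231; exact 95% interval 53.1% to 66.1%) in replicate 1 and 63.7% (415 of 651; 59.9% to 67.4%) in replicate 2. In myofibroblast-like cells Itga6 took 3.43% and 2.5%, and Itga11 took 51.0% (905 of 1776; 48.6% to 53.3%) and 48.0% (442 of 920; 44.8% to 51.3%). Of the UMIs of the 4 β members, Itgb4 took 39.7% (1049 of 2645; 37.8% to 41.6%) and 39.4% (1124 of 2853; 37.6% to 41.2%) in the Perp Krt19 Gsto1 state and 3.74% and 5.07% in myofibroblast-like cells. In pluripotent-like cells, where its level was lowest, Itgb4 took 11.9% and 17.1%. In the 66 epithelial-like cells of replicate 1 it took 42.6% (110 of 258; 36.5% to 48.9%). Itgb1 took 53.8% and 53.4% of the β members' UMIs in pluripotent-like cells and 57.5% and 51.2% in myofibroblast-like cells. Capture can differ between 3′ ends, so these shares compare states and not genes.

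**Figure D4:**
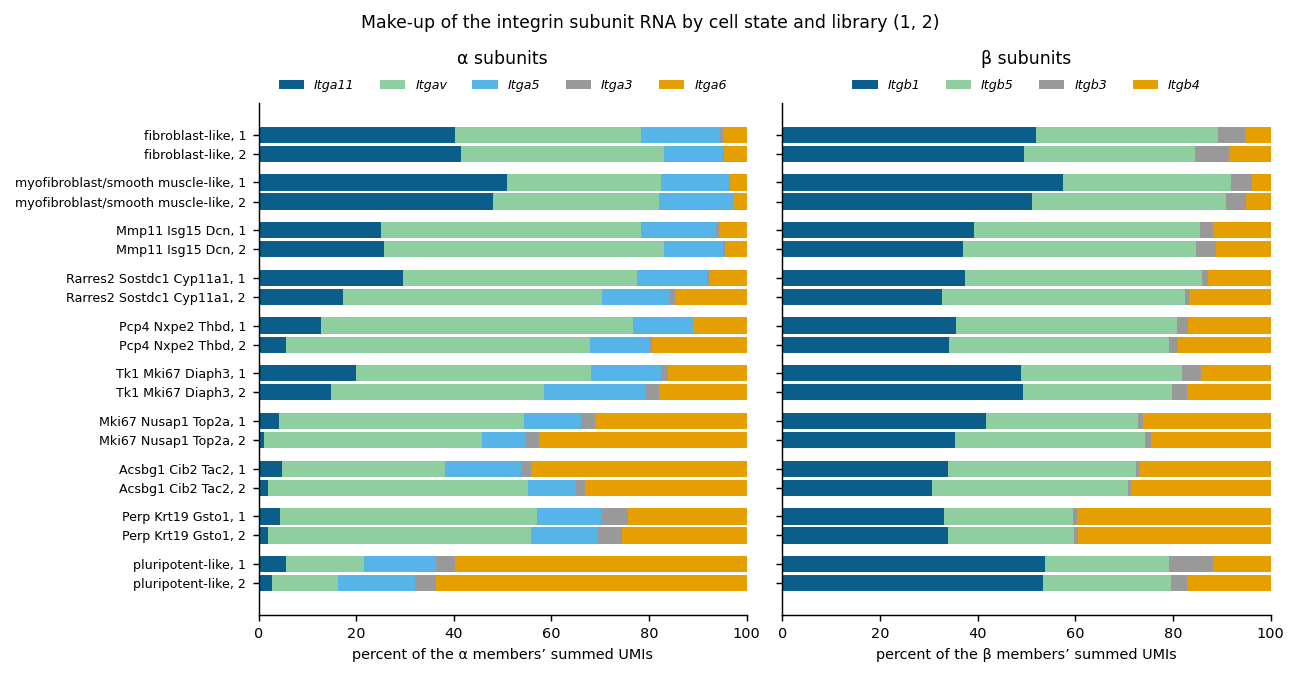
Share of each α member (left) and β member (right) in the summed UMIs of its family, as stacked bars from 0 to 100 percent for each state and library (1 and 2). Itga6 fills 59.7% and 63.7% of the α bars of pluripotent-like cells, and Itgb4 fills 39.7% and 39.4% of the β bars of the Perp Krt19 Gsto1 state.

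In single cells, detection of an α subunit beside its β partner varied by pair. Only pairs of state and library with at least 30 cells that had a UMI of the β subunit were counted. After thinning, the share of cells with an Itga6 UMI was higher in cells with an Itgb4 UMI than in cells without in 7 of 13 such pairs. In the Perp Krt19 Gsto1 state these shares were 10.6% (11 of 104 cells) and 4.89% in replicate 1 and 8.04% (9 of 112 cells) and 3.78% in replicate 2. The count was 10 of 19 for Itga6 with Itgb1, 9 of 19 for Itga5 with Itgb1, 11 of 19 for Itga11 with Itgb1, 11 of 18 for Itgav with Itgb5 and 16 of 19 for Itgav with Itgb1. These are descriptions of sparse counts.

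Across the 20 profiles of a state in a library, the levels of Itgav and Itgb1 had a Pearson r of 0.96, Itga5 and Itga11 of 0.95, Itga11 and Itgb3 of 0.93, and Itgb1 and Itgb5 of 0.89 on the log2 scale. Itga6 had negative values with Itgb5 (-0.88), Itgav (-0.71) and Itgb1 (-0.69). Itga6 and Itgb4, which pair with each other, had -0.21, and Itgb4 reached 0.40 at most, with Itgb5. The genes most like Itga11 were Cdh11 (0.98), a cadherin of mesenchymal cells, Sec24d and Mfap5. Those most like Itgb1 were Calu (0.99), Lpp, a focal adhesion protein, and Cttn, an actin regulator. Itgb4 was most like Eva1c (0.93), Ociad2 and Il34, Itgb5 most like Sspn (0.99), Map1lc3a and Hcfc1r1, and Itga6 most like Kat2a (0.94), Hspe1 and Psph. The profiles share 2 libraries and differ in depth, and no p is given.

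Integrin ligands were low in the same cells as the mesenchymal set. Of 33 listed ligands 24 were tested, and 23 were lower and 0 higher in pluripotent-like cells, with a median log2 difference of -2.52, where 46.1% of all genes were lower and the median was -0.16. By an unadjusted p below 0.05 there was also none higher. Thbs1, a matricellular ligand, was at 0.120 and 0.108 in pluripotent-like cells against 4.25 and 2.52 in the others (-3.98), and the collagen chains Col3a1 (-3.66), Col1a2 (-3.65) and Col6a3 (-3.31) followed. Spp1 (osteopontin), a ligand of αv integrins, was the exception, at 5.92 and 7.53 against 8.88 and 5.73 (-0.09, adjusted p = 0.63 by limma). The other cells were far from alike, with Spp1 at 87.1 and 77.2 in the fibroblast-like state. Earlier results of these data had already named such cells by Spp1, so that level is a description. In every other non-pluripotent state with at least 30 cells per library Spp1 was below the pluripotent-like level in both libraries. Of 25 tested adhesion partners, genes of proteins that act at the integrin tail, 23 were lower against the same 46.1%, with a median of -0.86, led by Parva (-2.72), Lpp (-2.49), Nexn (-2.11) and Zyx (-2.04). The kinase gene Src (0.12, adjusted p = 0.27 by limma) and Sharpin (-0.02, adjusted p = 0.82 by limma) did not pass. Of the 3 tested hemidesmosome partners all were lower, Plec by -1.33, Dst by -1.0 and Cd151 by -0.41.

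**Figure D5:**
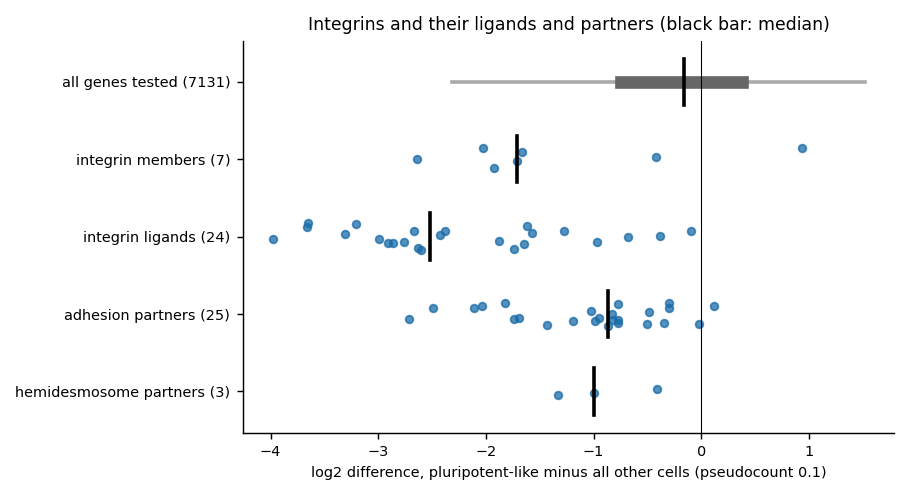
Log2 difference between pluripotent-like and all other cells for each tested gene of the integrin members and of 3 lists of ligands and partners (points), with a black bar at the median and, for all genes tested, a thick bar over the central 50% and a thin bar over the central 95% of genes. The ligands have a median of -2.52, the adhesion partners of -0.86, and all genes tested of -0.16.

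Among the other states the ligands followed the mesenchymal set. Of the 24 ligands 22 were higher in myofibroblast-like cells, and 21 were higher and 1 lower in fibroblast-like cells, where 54.9% and 55.8% of all genes passed in either direction. Thbs1 was at 15.8 and 11.7 in the former and 13.3 and 12.4 in the latter, and Col1a1, a chain of the collagen that Itga11 receptors bind, at 21.5 and 16.7 and at 28.2 and 20.0. Earlier results of these data had already named myofibroblast-like cells by Thbs1, so its level there is a description. In the Perp Krt19 Gsto1 state 23 were lower (46.6% of all genes passed), in the Acsbg1 Cib2 Tac2 state 22 (55%), and in the Mki67 Nusap1 Top2a state all 24 (56.9%). The adhesion partners parted from the ligands in the Perp Krt19 Gsto1 state, where 8 of 25 were higher and 6 lower against 46.6% of all genes in either direction, led by the actin-binding protein gene Csrp1 at 2.80 and 3.07 (1.09). In myofibroblast-like cells 21 of 25 were higher, against 54.9%.

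Levels also differed between the libraries within states. Itga11 was lower in replicate 2 in 9 of 10 states, by a median of -0.19 on the log2 scale, Itgb1 was lower in 8 of 10, and Itgb4 was higher in 8 of 10, by a median of 0.16. Both libraries had the same sign of difference between pluripotent-like and other cells for each of the 9 members. The share of all genes with the same sign was not counted, and 77.8% of genes tested passed the threshold in this comparison.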

How the data were processed

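Cells of 2 libraries (10x Chromium 3′, V2 chemistry) were measured at day 16 and given by the submitters as 1 group. The submitters' processing notes name Cell Ranger 2.1.1, Seurat and the build mm10. The deposited values are natural log values of 1 plus UMIs per 10000, made by the authors from cells they had filtered on genes detected and mitochondrial share. The cells kept had 1508 to 5987 genes and 4753 to 60990 UMIs. Scripts undid the log and recovered whole UMIs (100% of values within 0.01). Per-sample columns not used: 0.

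Cells were clustered in scanpy 1.11.5 (2000 variable genes, 30 components, 15 neighbours, Leiden resolution 1), leaving out 675 genes (integrins and adhesion genes, X- and Y-linked genes and the reprogramming factors). A cluster took a class name where at least 50% of the markers of that class, and at least 3, were 2-fold higher than in other cells. No doublet caller was run. Mean profiles per state and library, as log2(level + 0.1) and with genes under a mean of 0.1 left out, were fitted with limma 3.58.1 (library as a term, eBayes with trend, two-sided, Benjamini-Hochberg over all genes tested, threshold 0.05). Two-class profiles compared pluripotent-like with all other cells, and state contrasts each of 9 states with the mean of the others. Shares used cells thinned to 3000 UMIs. The fits were tested on simulated data. Log2 differences carry the pseudocount and understate low genes. Library was a term because both classes and all states came from the same 2 libraries, whose numbers follow accession order.

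The members, gene lists and tests were chosen with earlier results of these data known. Named were all 9 members, up to 4 genes with the largest called difference in each list and direction, and the 3 genes most correlated with a member. Other list genes were picked after their values were seen.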

Additional observations from a re-analysis of the deposited data

How the results depend on the processing

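The counts of subunits past the threshold in pluripotent-like cells and across states stayed within 1.5 times their value under every alternative except a filter at a mean of 0.5, which left 3 members tested and gave 3 past the threshold in each comparison, 3 lower and 0 higher in pluripotent-like cells. With that filter 1780 of all 2201 genes tested passed in pluripotent-like cells, 991 lower and 789 higher. With no filter 8 of 9 members passed in pluripotent-like cells, Itgb3 with an adjusted p of 0.0065 and Itga3 not (0.084, both by limma). In that setting 9518 of all 17408 genes passed. Of the calls in pluripotent-like cells only that of Itga5 was lost, after thinning. No tested subunit changed sign in pluripotent-like cells. Pseudocounts of 0.01 and 1 moved the difference of Itgb5 to -3.22 and -1.08 and that of Itga6 to 1.29 and 0.26. Against fibroblast-like cells alone, Itga11 was at -3.27 and Itgb4 at -1.30. Without replicate 1 or replicate 2 the difference lay between 0.90 and 0.98 for Itga6, -2.77 and -2.51 for Itgb5, -2.01 and -1.41 for Itga11, and -0.61 and -0.23 for Itga5, with no test left. Without the term for library (no replicate block), 7 members passed in pluripotent-like cells, where 5194 of all 7131 genes tested passed. Without that term 42 of 63 state contrasts passed, against 43. Of those 43, a set of alternatives chosen after seeing the data kept 34 to 43 called with the same sign, fewest after thinning, which lost 9. With no filter, 5 of 14 other subunits were lower and 2 higher in pluripotent-like cells. Of 31 ligands 1 was higher, and of 33 adhesion partners 3 were higher. Of all 17408 genes 5333 were lower and 4185 higher in that setting. Unthinned shares in pluripotent-like cells were 58.2% and 59.1% for Itga6, 7.53% and 4.6% for Itga11, 56.2% and 49.6% for Itgb1, and 17.1% and 18.7% for Itgb4. With 2 libraries the spread is poorly known, and the lowest levels rest on few UMIs.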

Other observations

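Of the other integrin subunits, 14 of 17 listed were in the table and none reached the mean needed for a test, so their values are given as a description, picked after they were seen. Levels under this heading are a gene's summed UMIs per 10000 summed UMIs of the cells. They are not means over cells and can differ from the levels given above for the same cells. Itgb7, a β subunit known from lymphocytes, was almost confined to the pluripotent-like state of these libraries. It had 38 UMIs in the pluripotent-like cells of replicate 1 (0.0899 per 10000 UMIs, exact Poisson 95% interval 0.0636 to 0.123) and 98 in those of replicate 2 (0.0946, interval 0.0768 to 0.115), which made up 84.4% and 88.3% of all Itgb7 UMIs of the libraries, while no other state with at least 30 cells in a library had more than 4. Of its α partners, Itgae had 3 and 6 UMIs in the same cells, 60% and 75% of all Itgae UMIs of the libraries, and Itga4 had 2 and 1. The highest Itga4 level in a state of that size was 0.0808 (57 UMIs), in the Perp Krt19 Gsto1 cells of replicate 1, against 0.0103 (7 UMIs) in those of replicate 2.

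Small states held other subunits, with levels again from summed UMIs. The 42 mesothelial-like cells of replicate 2, 1.07% of that library, held 16.3% of its Itga3 UMIs (22 UMIs, 0.435 per 10000, interval 0.273 to 0.659, against 0.0176 in the rest of the library) and 23.9% of its Itga7 UMIs (11 UMIs). Their Itgav was at 1.03 (52 UMIs, interval 0.768 to 1.35), against 0.401 in the rest. The 14 cells of replicate 1 led by Gap43, S100b and Fxyd1 had Itga6 at 1.02 (15 UMIs, interval 0.573 to 1.69), against 0.163 in the rest, and Itga7 at 0.341 (5 UMIs, interval 0.111 to 0.797), against 0.00445. These cells were nearly all from 1 library each, so there is no replicate, and the intervals cover counting error only.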
